A study of Oryctolagus cuniculus with 16 samples.

Results

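The genes of bone morphogenetic protein (BMP) signaling described here were chosen by name: 4 ligands (*BMP2*, *BMP4*, *BMP6* and *BMP7*), 3 secreted antagonists (*GREM1*, *NOG* and *CHRD*) and 3 receptors (*BMPR1A*, *BMPR1B* and *BMPR2*). All 10 were found by their symbols among the 20255 genes of the table. The rule that picks them uses symbols only, not measured values, but the list was drawn up with earlier results of these data known. The genes were measured by total RNA-seq in femoral head tissue, with 5 rabbits in the Perthes disease group and 3 in the control group. The Perthes condition was a surgical model: wild-type animals aged 8 weeks had a suture tied around the neck of the femur and the ligament of its head cut, so that the head lost blood supply. The labels name this group by the genotype "Perthes' disease" although the condition was made by surgery, and they name the controls wild type (WT). The age of the controls, the interval between surgery and sampling, and whether the controls had a sham operation were not given in the sources used here.

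BMPs are secreted dimers that bind a complex of type I and type II serine/threonine kinase receptors on the cell surface. The type II receptor activates the type I receptor, which phosphorylates SMAD1, SMAD5 and SMAD9, and these enter the nucleus with SMAD4 and switch on targets such as the *ID* genes. Antagonists bind the ligands outside the cell and keep them from the receptors. In bone, the pathway is known for driving osteoblast and chondrocyte differentiation and for its part in repair.

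The 8 libraries held similar numbers of reads. The 5 Perthes libraries held 27331732 to 29461494 counts each, with a median of 29137911, and the 3 control libraries held 26757094 to 28783093, with a median of 27586072. Values below are CPM, which are counts scaled to one common library size, corrected for library composition by the TMM factors, and log2 fold changes are Perthes minus control with their standard errors (SE). Transcript lengths were not used, so levels are compared between rabbits for each gene and never between genes. The labels do not say how the rabbits were allotted to the groups. A p-value here sets the group difference against the spread between these 8 rabbits only, estimated partly from all genes tested.

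None of the 10 genes passed an adjusted p below 0.05 in edgeR's quasi-likelihood test, with 0 higher and 0 lower in Perthes disease. Across all 15305 genes tested, 6.21% were called higher and 8.87% lower. An unadjusted p below 0.05 was reached by *CHRD*, *BMPR1A* and *BMPR1B*, all with higher levels in Perthes disease, which is 3 of 10 genes beside 31.9% of all genes. DESeq2 called 2 genes higher, *CHRD* (adjusted p = 0.0192) and *BMPR1B* (adjusted p = 0.0128), beside 9.74% of the genes it tested. The median log2 fold change was 0.37 over the 10 genes and 0.02 over all genes tested, with 7 genes above 0 and 3 below. By role, the median was 0.18 for the ligands, 0.20 for the antagonists and 0.67 for the receptors. All 10 genes passed the low-count filter. The 95% intervals were wide: that of *BMP2*, the gene with the difference nearest to 0, still included folds from 0.419 to 2.30, so a missed threshold does not show equal levels.

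**Figure D1:**
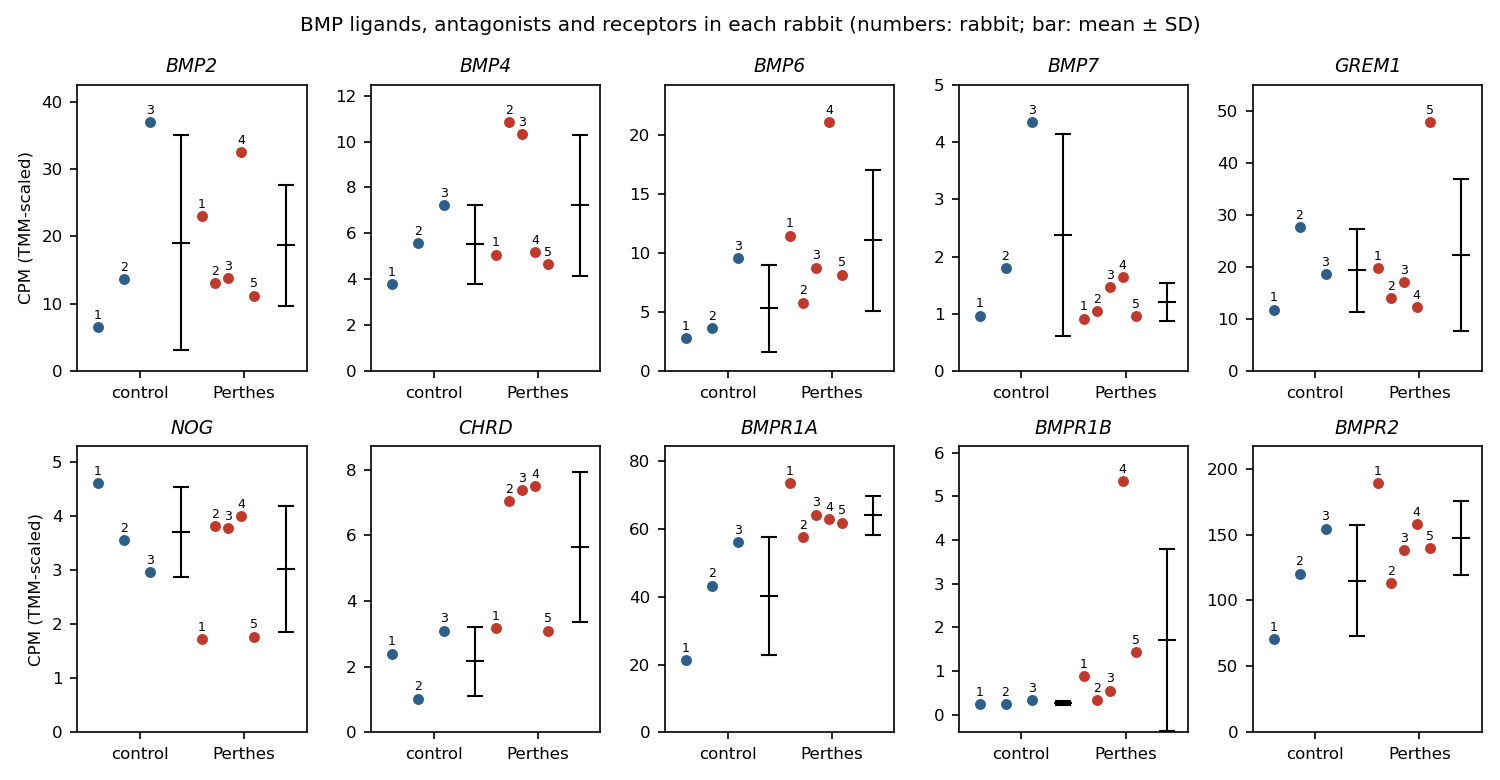
CPM (TMM-scaled, linear axes) of each gene in every rabbit, with the rabbit's number above its point and the mean ± SD of the group beside the points (control n = 3, Perthes n = 5). The groups overlap in 7 panels, and in *CHRD*, *BMPR1A* and *BMPR1B* the lowest Perthes rabbit lies just above the highest control with this scaling, but not with library totals alone. The SD of *BMPR1B* in Perthes disease exceeds its mean, so its bar reaches below 0.

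Among the ligands, *BMP2* (gene 100009349), a strong inducer of bone and cartilage formation that is needed for fracture healing, averaged 18.7 ± 8.98 CPM in Perthes disease (SD, n = 5) and 19.0 ± 15.9 CPM in controls (SD, n = 3). Its level was 22.9, 13.0, 13.8, 32.5 and 11.2 CPM in Perthes rabbits 1 to 5 and 6.50, 13.6 and 37.0 CPM in control rabbits 1 to 3. The lowest and the highest of the 8 rabbits were both controls. This gave a log2 fold change of -0.03 (SE 0.54, 95% interval -1.26 to 1.20, adjusted p = 0.977). Control rabbit 3 held 66.2% of the control group's *BMP2* counts, and without it the log2 fold change was 0.89 (adjusted p = 0.256).

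*BMP4* (gene 100009569), a ligand closely related to *BMP2*, differed between 2 higher and 3 lower Perthes rabbits. Perthes rabbits 1 to 5 had 5.07, 10.9, 10.3, 5.17 and 4.66 CPM, and control rabbits 1 to 3 had 3.79, 5.57 and 7.22 CPM. Only Perthes rabbits 2 and 3 exceeded the highest control. With a log2 fold change of 0.38 (SE 0.37, 95% interval -0.46 to 1.22), the gene did not pass the test (adjusted p = 0.508).

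*BMP6* (gene 100354948), a ligand of bone and cartilage that also controls hepcidin in the liver, had a mean of 11.1 ± 5.98 CPM in Perthes disease (SD, n = 5) and 5.32 ± 3.68 CPM in controls (SD, n = 3). The Perthes rabbits had 11.5, 5.80, 8.78, 21.1 and 8.17 CPM and the control rabbits 2.79, 3.63 and 9.55 CPM. All 5 Perthes rabbits exceeded controls 1 and 2, whereas control 3 lay above Perthes rabbits 2, 3 and 5. Between the groups, the log2 fold change was 1.06 (SE 0.52, 95% interval -0.11 to 2.22, adjusted p = 0.195). It was 1.79 without control 3 (adjusted p = 0.0576) and 0.68 without Perthes rabbit 4 (adjusted p = 0.312).

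*BMP7* (gene 100337873 in the table), also known as osteogenic protein, was the ligand with the lowest difference. It was measured at 0.912, 1.05, 1.47, 1.64 and 0.953 CPM in Perthes disease and at 0.965, 1.80 and 4.36 CPM in controls. Controls 2 and 3 lay above all 5 Perthes rabbits, and control 1 lay among them. *BMP7* had a log2 fold change of -0.98 (SE 0.46, 95% interval -2.03 to 0.07, adjusted p = 0.181), and of -0.20 without control 3, which held 62.7% of the control counts (adjusted p = 0.775). The Perthes values rest on 27 to 45 counts per library.

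The symbol *BMP7* did not cover all records described as this gene. The RefSeq table of the assembly mOryCun1.1 gives *BMP7* as gene 100008826, which the authors' table lists under LOC100008826, and LOC103347033 has the same description. The other 9 genes carried the same identifier in both tables. LOC100008826 was measured at 1.82, 2.51, 2.57, 4.00 and 2.08 CPM in Perthes disease and at 1.79, 2.68 and 6.22 CPM in controls, with a log2 fold change of -0.46 (SE 0.42, adjusted p = 0.488). LOC103347033 gave a log2 fold change of -0.84 (adjusted p = 0.364). Control 3 was the highest rabbit in all 3 records. The 3 records summed gave a log2 fold change of -0.69 (adjusted p = 0.304). How reads shared among these records were divided cannot be seen in the counts, so the level of *BMP7* is uncertain. A record described as *BMP2*-like, LOC108175367, had a log2 fold change of -0.13 (adjusted p = 0.875).

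**Figure D2:**
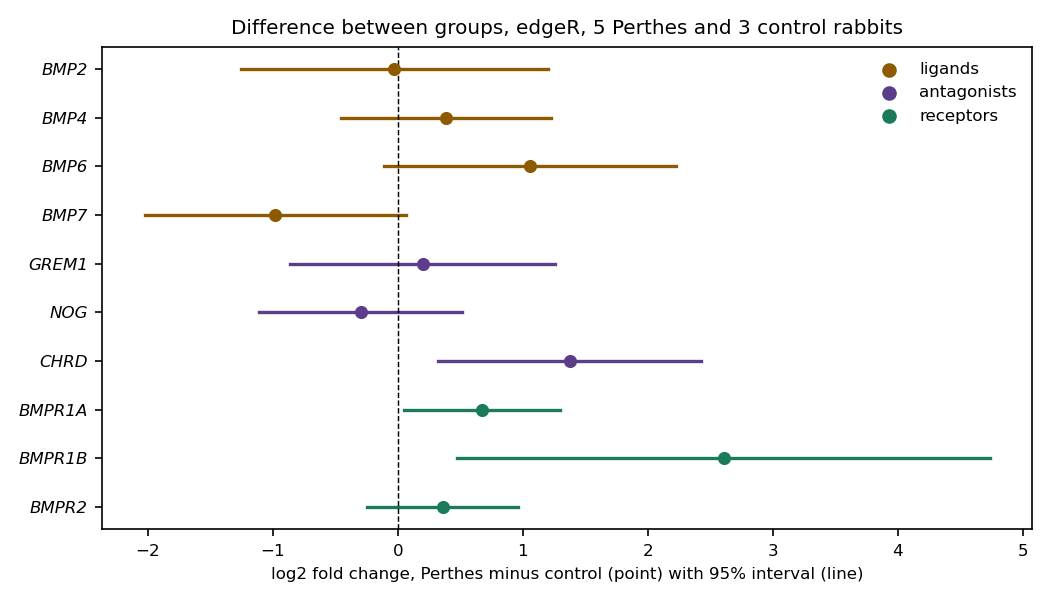
Log2 fold change of each gene, Perthes minus control (point), with its 95% interval from edgeR (line), colored by role (5 Perthes and 3 control rabbits). The intervals of *CHRD*, *BMPR1A* and *BMPR1B* lie above 0 before adjustment for the number of genes tested, and the other 7 include 0.

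Among the antagonists, *GREM1* (gene 100342066), which encodes gremlin and binds BMP2 and BMP4, had 19.8, 14.0, 17.1, 12.3 and 47.9 CPM in Perthes disease and 11.8, 27.7 and 18.6 CPM in controls. Perthes rabbit 5 stood above the other 7 rabbits, and the other 4 Perthes rabbits lay within the range of the controls. Between the groups, the log2 fold change was 0.20 (SE 0.47, 95% interval -0.86 to 1.26, adjusted p = 0.800). It turned to -0.29 (adjusted p = 0.575) without Perthes rabbit 5, which held 44.4% of the group's *GREM1* counts.

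*NOG* (gene 100358460) encodes noggin, which covers the receptor-binding surfaces of the ligands. Its level was 1.72, 3.82, 3.78, 4.00 and 1.77 CPM in Perthes rabbits 1 to 5 and 4.61, 3.56 and 2.96 CPM in control rabbits 1 to 3. Perthes rabbits 1 and 5 lay below all controls, whereas Perthes rabbits 2, 3 and 4 lay among them. With a log2 fold change of -0.30 (SE 0.36, 95% interval -1.11 to 0.51), the gene did not pass the test (adjusted p = 0.602).

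*CHRD* (gene 100008933) encodes chordin, an antagonist that is cut by the protease BMP1 to release its ligand. Perthes rabbits 1 to 5 had 94, 188, 201, 206 and 91 counts, or 3.17, 7.04, 7.38, 7.49 and 3.10 CPM. Control rabbits 1 to 3 had 67, 29 and 93 counts, or 2.39, 1.02 and 3.09 CPM. The groups did not overlap on the CPM scale, but the gap between Perthes rabbit 5 and control 3 was only 0.0042 CPM, and scaled by library totals alone the groups overlapped. *CHRD* had a log2 fold change of 1.37 (SE 0.47, 95% interval 0.32 to 2.43), a fold of 2.59 with an interval of 1.25 to 5.38. Its adjusted p was 0.0775 in edgeR and 0.0192 in DESeq2. With each rabbit left out in turn, the edgeR log2 fold change was lowest without control 2, at 1.04 (adjusted p = 0.223). It was highest without control 3, at 1.72 (adjusted p = 0.0749).

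The levels of *CHRD* and *NOG* were both higher in Perthes rabbits 2, 3 and 4 than in Perthes rabbits 1 and 5. The ratio of *CHRD* to *NOG* counts was 1.84, 1.84, 1.95, 1.87 and 1.75 in Perthes rabbits 1 to 5, against 0.519, 0.287 and 1.04 in control rabbits 1 to 3. All Perthes ratios lay above all control ratios, with a mean of 1.85 ± 0.0723 (SD, n = 5) against 0.617 ± 0.388 (SD, n = 3). A ratio within a library does not depend on how the libraries are scaled. Because the transcripts differ in length, the ratio does not say which antagonist had more copies. It was singled out of 45 pairs of the 10 genes after their values were seen, and no test is given.

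**Figure D3:**
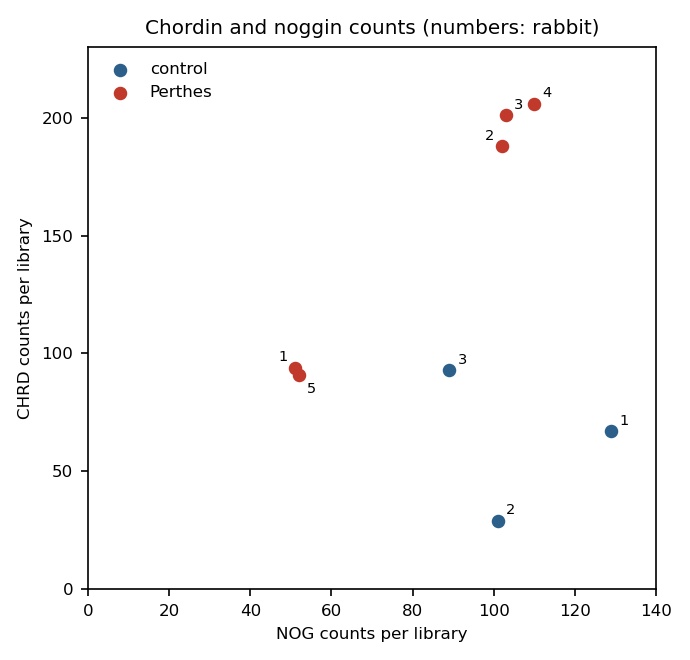
Counts of *CHRD* (vertical axis) against counts of *NOG* (horizontal axis) in each library, numbered by rabbit, before any scaling. The 5 Perthes rabbits lie along a line from the origin at a ratio near 1.85, and the 3 controls lie below it.

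Over all pairs of the 10 genes, the ratio separated the groups in 10 of 45 pairs (22.2%), beside 26.7% of all pairs of tested genes. *BMP7* took part in 6 of the 10, relative to *BMP2*, *BMP6*, *CHRD*, *BMPR1A*, *BMPR1B* and *BMPR2*, with its share lower in Perthes disease each time. These 6 ratios share 1 record, gene 100337873, with 27 to 45 counts per Perthes library, so they are not separate results. LOC100008826 and LOC103347033, also described as *BMP7*, were not used in them. With the counts of LOC100008826 in place of that record, the groups overlapped relative to *BMP2*, *BMPR1A*, *BMPR1B* and *BMPR2*. They stayed apart relative to *BMP6* and *CHRD*. For *BMPR1A*, Perthes rabbit 4 had 110 counts of LOC100008826 beside 1729, and control 2 had 76 beside 1226. The pattern may not hold for LOC103347033. The other 4 pairs were *BMP2* to *BMP6*, *GREM1* to *BMPR1B*, *NOG* to *CHRD* and *BMPR1A* to *BMPR2*. The ratio of *BMP6* to *BMP7* counts was 12.6, 5.54, 5.97, 12.9 and 8.57 in Perthes rabbits and 2.89, 2.02 and 2.19 in control rabbits.

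Among the receptors, *BMPR1A* (gene 100350518), the type I receptor also called ALK3 that is widely expressed in the skeleton, had similar levels in all Perthes rabbits. It was measured at 73.4, 57.6, 64.1, 62.9 and 61.7 CPM in Perthes disease and at 21.3, 43.2 and 55.9 CPM in controls. The lowest Perthes rabbit lay above the highest control with TMM scaling, but not with library totals alone. Perthes rabbits averaged 63.9 ± 5.81 CPM (SD, n = 5) and controls 40.2 ± 17.5 CPM (SD, n = 3). Between the groups, the log2 fold change was 0.67 (SE 0.28, 95% interval 0.05 to 1.29, adjusted p = 0.131). Without control 1 it was 0.37 (adjusted p = 0.227), and without control 3 it was 0.99 (adjusted p = 0.0548).

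*BMPR1B* (gene 100351275), the type I receptor also called ALK6 that is known from cartilage condensations and digit growth, had few counts. Perthes rabbits 1 to 5 had 26, 9, 15, 147 and 42 counts, or 0.878, 0.337, 0.551, 5.35 and 1.43 CPM. Control rabbits 1 to 3 had 7, 7 and 10 counts, or 0.250, 0.247 and 0.333 CPM. Perthes rabbit 4 was far above the others, and Perthes rabbit 2 lay within 1 count of control 3, above it only after scaling by TMM. The log2 fold change was 2.61 (SE 0.94, 95% interval 0.48 to 4.73), a fold of 6.09 with an interval of 1.39 to 26.6, and the adjusted p was 0.0931. Perthes rabbit 4 held 61.5% of the group's counts, and without it the log2 fold change was 1.52 (adjusted p = 0.0893).

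Perthes rabbit 4 was also the rabbit with the highest summed level of 10 chondrocyte markers, at 150864 CPM beside 36842 to 81101 CPM in the other Perthes rabbits and 47406 to 68407 CPM in controls. *COL2A1* made up most of this sum in every library, with 116591 CPM in Perthes rabbit 4. The other chondrocyte markers tested were also highest in that rabbit. None of the 9 chondrocyte markers tested was called in either direction between the groups. The part of cartilage content in the *BMPR1B* level of Perthes rabbit 4 was not tested. In whole tissue, a different number of cells of a type and a different amount of RNA per cell cannot be told apart.

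*BMPR2* (gene 100350246), the type II receptor that pairs with both type I receptors, was measured at 188.8, 113.3, 138.2, 157.9 and 139.8 CPM in Perthes disease and at 70.6, 120.2 and 154.4 CPM in controls. Control 1 was the lowest of the 8 rabbits, and controls 2 and 3 lay among the Perthes rabbits. The log2 fold change of 0.36 (SE 0.27, 95% interval -0.24 to 0.96) did not pass the test (adjusted p = 0.387). Without control 1 it was 0.11 (adjusted p = 0.801). The ratio of *BMPR1A* to *BMPR2* counts was 0.389, 0.508, 0.464, 0.398 and 0.442 in Perthes rabbits and 0.302, 0.360 and 0.362 in control rabbits, again without overlap and chosen after the values were seen.

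The groups were apart, with every Perthes rabbit above every control, in 3 of the 10 genes, and in the other direction in none. Over all genes tested, 11.2% were apart with higher levels in Perthes disease and 13.9% with lower levels. With scaling by library totals, the groups overlapped in all 3 genes, beside 7.90% of all genes that were apart and higher. Some rabbits held the same rank in several of the genes. Control 1 was the lowest of the 8 rabbits in 6 genes (*BMP2*, *BMP4*, *BMP6*, *GREM1*, *BMPR1A* and *BMPR2*) and the highest in *NOG*. Control 3 was the highest of the controls in 8 genes, and Perthes rabbit 4 the highest of its group in 6.

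**Figure D4:**
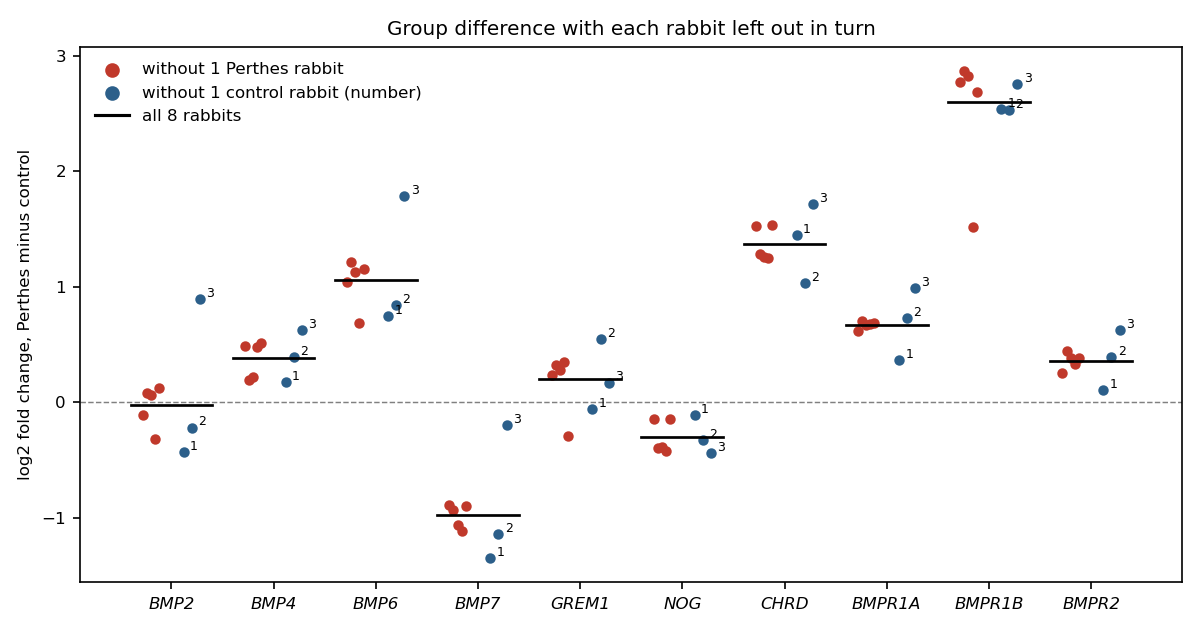
Log2 fold change of each gene, Perthes minus control, with each of the 8 rabbits left out in turn (red points, without 1 Perthes rabbit; blue points, without the control rabbit whose number is beside the point) and with all rabbits (black line). Leaving out control 3 moved *BMP2* from -0.03 to 0.89 and *BMP7* from -0.98 to -0.20, and leaving out Perthes rabbit 4 moved *BMPR1B* from 2.61 to 1.52.

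Marker genes of other cell types differed between the same rabbits. Markers of bone were abundant in every library, and the summed level of 8 osteoblast and osteocyte markers ranged from 88558 to 243442 CPM in Perthes disease and from 120181 to 155589 CPM in controls, with 0 of 8 called. *COL1A1* and *COL1A2*, the type I collagen genes that stroma also expresses, made up 97.8% to 99.4% of this sum. The bone matrix genes *IBSP* and *BGLAP* had log2 fold changes of 1.23 (adjusted p = 0.106) and -1.15 (adjusted p = 0.205). The single marker genes given with values here, *COL3A1*, *ROBO4* and *PECAM1* included, were picked after their values were seen. The sum of 8 fibroblast and stroma markers ranged from 15048 to 26156 CPM in Perthes disease and was 1828, 3597 and 9475 CPM in controls 1 to 3, with 3 of 8 called higher. *COL3A1* made up 42.7% to 79.7% of it. Control 1, the lowest in 6 of the 10 BMP genes, had the lowest stroma sum, and control 3, the highest control in 8 of them, the highest stroma sum of the controls. This order was not particular to stroma. Smooth muscle and pericyte sums (223, 258 and 318 CPM in controls 1 to 3) and skeletal muscle sums (5.18, 17.3 and 61.6 CPM) had it too. The chondrocyte sum was also highest in control 3 among controls. Neutrophil, macrophage and endothelial sums were highest in control 1 and lowest in control 3. In the Perthes group the highest stroma sum was that of rabbit 1 (26156 CPM), and rabbit 4, the highest of its group in 6 genes, had 21733 CPM. The sum of 6 neutrophil markers was 13606 CPM in control 1 and 3580 to 3939 CPM in the other controls, against 18.3 to 1099 CPM in Perthes disease, with 3 of 6 called lower. Erythroid markers summed to 4698 to 5324 CPM in controls and to 32.7 to 2185 CPM in Perthes disease, with 1 of 7 called lower. Macrophage markers (389 to 1302 CPM against 333 to 350 CPM, 3 of 5 called higher) and smooth muscle and pericyte markers (458 to 810 CPM against 223 to 318 CPM, 2 of 5 called higher) had higher sums in every Perthes rabbit than in any control. Endothelial (279 to 396 CPM against 324 to 395 CPM, 0 of 8 called), adipocyte (129 to 1467 CPM against 478 to 1430 CPM, 0 of 5) and skeletal muscle markers (3.06 to 16.4 CPM against 5.18 to 61.6 CPM, 0 of 3) overlapped. No marker in the table was at 0 in all libraries. The part of these cell types in the levels of the BMP genes was not tested.

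Of 56 other genes of BMP signaling listed by role, 53 were in the table under their symbols and 47 passed the low-count filter. In this list, 4 genes rose in Perthes disease, none fell and 43 were not called, beside 6.21% and 8.87% of all genes. The median log2 fold change was 0.41, and 16 of the 47 had an unadjusted p below 0.05, all of them higher, beside 31.9% of all genes in either direction. The groups were apart in 11 of the 47 with TMM scaling, all higher, beside 11.2% of all genes, and in 7 of the 47 with library totals, beside 7.90% of all genes. The 4 that then overlapped were *TWSG1*, *ACVR2A*, *ID2* and *ID3*.

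Both genes called among the 6 other ligands tested were growth differentiation factors of the group that is known from joint and tendon development. *GDF7* was measured at 11.2, 5.80, 9.14, 3.46 and 2.18 CPM in Perthes disease and at 0.465, 0.776 and 0.965 CPM in controls. *GDF6* was measured at 1.52, 3.26, 0.918, 5.82 and 2.14 CPM in Perthes disease and at 0.107, 0.317 and 0.665 CPM in controls. In both genes every Perthes rabbit exceeded every control. The log2 fold change was 3.10 for *GDF7* (SE 0.60, adjusted p = 0.0151) and 2.89 for *GDF6* (SE 0.76, adjusted p = 0.0345). *GDF5*, also of that group, was not called (log2 fold change 0.81, SE 0.69, adjusted p = 0.4505), and the groups overlapped. It had 1.55, 1.65, 0.991, 1.31 and 5.96 CPM in Perthes disease and 0.536, 1.09 and 2.29 CPM in controls.

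Of the 12 extracellular modulators tested, *FSTL1*, a secreted glycoprotein of mesenchymal cells that binds BMPs, rose with a log2 fold change of 1.12 (SE 0.30, adjusted p = 0.0385). Its level was 808, 836, 741, 608 and 716 CPM in Perthes disease and 197, 321 and 507 CPM in controls. Every Perthes rabbit exceeded every control. With library totals in place of TMM factors it was not called (adjusted p = 0.0581). Of the 11 other receptors and co-receptors, *ACVRL1*, the type I receptor of endothelial cells also called ALK1, rose with a log2 fold change of 0.85 (SE 0.19, adjusted p = 0.0224). It was measured at 33.4, 40.3, 43.8, 27.3 and 41.3 CPM in Perthes disease and at 18.9, 23.7 and 19.3 CPM in controls. Of the 8 endothelial markers, none passed the test, *ROBO4* had a log2 fold change of 0.74 (adjusted p = 0.0606) with every Perthes rabbit above every control, and *PECAM1* had -0.30 (adjusted p = 0.421). The part of endothelial cells in the *ACVRL1* level was not tested. The 4 calls did not hold throughout: none of the 4 genes was called without control 1 or without control 2.

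The other receptors that pair with BMP ligands gave log2 fold changes of 0.57 for the type I receptor *ACVR1* (adjusted p = 0.173), 0.86 for the type II receptor *ACVR2A* (adjusted p = 0.0914) and 0.01 for the type II receptor *ACVR2B* (adjusted p = 0.991). None of the 6 genes for SMADs and their ligases was called. The log2 fold change was 0.50 for *SMAD1*, 0.41 for *SMAD5* and 0.12 for *SMAD9*, which carry the signal, and 0.27 for their partner *SMAD4*.

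None of the 12 targets tested was called, beside 6.21% higher and 8.87% lower over all genes. An unadjusted p below 0.05 was reached by 6, all higher, beside 31.9% of all genes in either direction. Of the 12, 7 had a log2 fold change above 0 and 5 below. Those below were *DLX5* (-0.52), *HEY1* (-0.19), *SP7* (-0.15), *RUNX2* (-0.14) and *SMAD6* (-0.03). The largest difference was that of *MSX2* (log2 fold change 1.65, SE 0.56, adjusted p = 0.0781), with 5, 7 and 34 counts in controls 1 to 3. Its groups were apart with both scalings. The inhibitors of differentiation, which are direct targets of the BMP SMADs, gave log2 fold changes of 0.33 for *ID1* (adjusted p = 0.505), 0.74 for *ID2* (adjusted p = 0.0707), 0.73 for *ID3* (adjusted p = 0.0628) and 0.88 for *ID4* (adjusted p = 0.122). *ID3* was measured at 103.7, 147.6, 138.7, 102.3 and 123.1 CPM in Perthes disease and at 52.7, 96.9 and 72.9 CPM in controls. The lowest Perthes rabbit lay above the highest control, but with library totals the groups of *ID3* overlapped. The inhibitory SMADs, which BMP signaling induces as its own brake, gave -0.03 for *SMAD6* (adjusted p = 0.945) and 0.57 for *SMAD7* (adjusted p = 0.134).

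**Figure D5:**
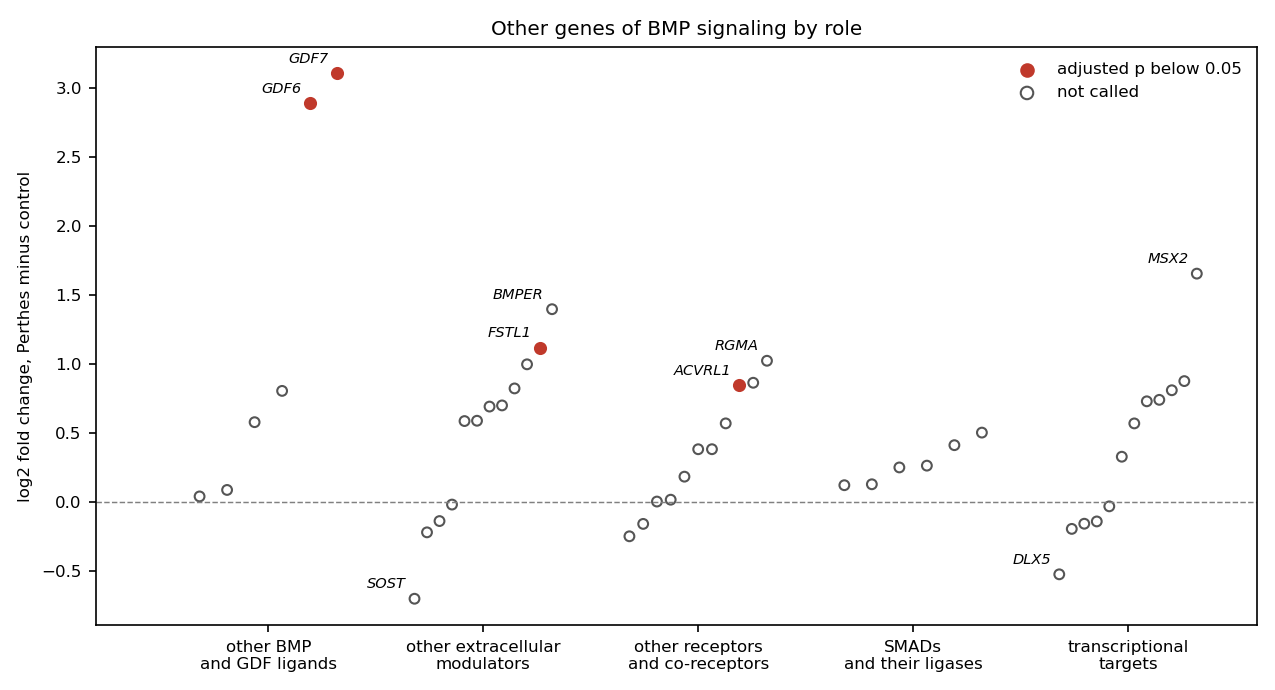
Log2 fold change, Perthes minus control, of the 47 other BMP signaling genes tested, arranged by role and in rising order within each role (filled, adjusted p below 0.05 in edgeR; open, not called). The 4 filled points are *GDF7*, *GDF6*, *FSTL1* and *ACVRL1*, and the open points labelled *BMPER*, *RGMA*, *MSX2*, *SOST* and *DLX5* were picked for labelling after their values were seen.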

How the data were processed

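Total RNA of femoral heads was depleted of ribosomal RNA and made into directional libraries. The authors filtered reads with SOAPnuke and, per the labels, used HISAT2 2.0.4, RSEM 1.1.17 and HTSeq 1.99.2. They deposited expected counts per gene without normalization. These estimates can divide a read among genes: between 10.0% and 10.7% of a library's values had a fractional part, but 0 of those of the 10 genes. Counts were rounded. Another 8 columns of per-sample values and the 8 small RNA samples were not used here. Samples were grouped by their titles. The third control carries the code 3 in its title and another replicate number, and is called control 3.

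After TMM normalization and filterByExpr by group, genes were tested by the quasi-likelihood F-test (two-sided, Benjamini-Hochberg adjustment over 15305 genes) of edgeR 4.0.16 in R 4.3.3. The filter removed 4950 genes. At 26757094 to 29461494 counts per library, precision was limited by the spread between rabbits. *BMPR1B* also had few counts, and its SE was 0.94 with all rabbits and 0.54 without Perthes rabbit 4. "Apart" means that the CPM ranges of the groups do not overlap. Ratios of all gene pairs were compared after adding 0.5. The tests were also tried on simulated counts, with means and spread taken from the edgeR fit to these data. The edgeR test recovered 7 of 100 genes changed by a log2 of 1 and 61 of 99 changed by 2, with 3 wrong calls. Only these genes were changed among the 15305 simulated, whereas 951 genes were called higher and 1357 lower in the data. With fewer changed genes the adjustment is stricter, so these shares do not give the recovery in the data. The alternatives were DESeq2 1.42.0, other scalings and filters, a block for the replicate number, and leaving out each of the 8 rabbits.

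The genes and lists were chosen with earlier results of these data known. Named are the 10 genes, called genes of the list, and fixed receptors, SMADs and targets. *GDF5*, *MSX2*, *DLX5*, *HEY1*, *SP7* and *RUNX2* were added outside that rule, after their values were seen. The rule that would name the genes most correlated with each called member named none, as no member was called. Sequences and coordinates are not reported here, and RefSeq's mOryCun1.1 table was used for identifiers only.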

Additional observations from a re-analysis of the deposited data

Results flagged for a closer look

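In 3 of the 27 genes named by rule, 1 Perthes rabbit stood far from the other 4. Its gap to its nearest neighbour, as a share of the group's whole range, exceeded the 95% critical value of Dixon's test for 5 samples. Chance flags about 1 in 20 groups if values are normally distributed, which was not checked for these CPM on the linear scale. All 3 flags were at the high end. *GREM1* was at 47.9 CPM in Perthes rabbit 5 (0.789 of the range). *BMPR1B* was at 5.35 CPM in Perthes rabbit 4 (0.782 of the range). *ACVR2A*, a type II receptor, was at 17.4 CPM in Perthes rabbit 1 (0.801 of the range). A different rabbit stood apart in each gene.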

How the results depend on the processing

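Of the 10 genes, 2 were called higher with DESeq2 (*CHRD*, log2 fold change 1.38, and *BMPR1B*, 2.65) and 0 in every other setting run. None was called lower in any setting, nor was any of the 47 other BMP signaling genes. Of those 47, 4 were called higher as reported, 0 with the replicate block and 0 to 5 with each rabbit left out. The count was 0 without control 1 or control 2, 1 without Perthes rabbit 5 and 2 without Perthes rabbit 3. DESeq2 called 12 of the 53 genes in the table higher, beside 9.74% of all genes it tested. The 53 include 6 genes that the low-count filter removed, and those 6 may not all be among the genes behind the 9.74%. The cause of these differences was not tested. The direction of *BMP2* changed to 0.087 with the replicate block and ran from -0.44 to 0.89 with each rabbit left out. That of *GREM1* changed to -0.12 with the replicate block and ran from -0.29 to 0.55. The other 8 genes kept their direction in every setting run. With the replicate block, *BMPR1B* gave 1.01 (adjusted p = 0.328) and *CHRD* 1.45 (adjusted p = 0.230). Correlations of departures from the group mean were -0.317, 0.161 and -0.238 for numbers 1 to 3. Between rabbits with unlike numbers they ran from -0.3138 to 0.4355. Departures within a group of 3 controls depend on each other, and the title of control 3 gives another replicate number. Whether the number marks a pairing therefore could not be decided.

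TMM moved the median of all genes to 0.02, and library totals to -0.06. *BMPR1B* was not tested when 10 counts were required in every library. Summing the records of *BMP7* and *BMP2*, chosen after the data were seen, gave -0.69 and -0.04. The fits for genes removed by the filter were not run, as no member was removed. The level of *BMPR1B* rests on low counts and varied widely between the Perthes rabbits.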
